A study of Mus musculus with 10 samples.

Results

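Vimentin (Vim), the simple epithelial keratins Krt8, Krt18 and Krt19, nestin (Nes) and the nuclear lamin genes Lmna, Lmnb1 and Lmnb2 were followed across Sertoli cells and whole testis. The mice were given as controls or as conditional Rnf20 knockouts. These 8 genes were chosen by name from the 17816 genes of the day 7 table and the 20007 genes of the adult table, and all 8 were listed and tested in both. Rnf20 encodes an E3 ubiquitin ligase that mono-ubiquitinates histone H2B. At 7 days after birth, RNA came from primary Sertoli cells of 2 Rnf20 Flox/Flox samples, which the labels call WT, and of 2 Amh-Rnf20-/- samples, in which Cre driven by the Amh promoter cuts floxed Rnf20 sequence out in Sertoli cells. These cells were cultured, passaged several times and kept as adherent cells before RNA extraction. RNA of adult whole testis came from 3 samples labelled WT and 3 labelled RNF20 conditional knockout, with the exact age and the alleles of the controls not given in the sources used here. All groups were untreated. The methods give 3 individuals per group at day 7, of which 2 per group were analysed here, and nothing in the labels beyond sample numbers says that replicates came from separate animals, so p-values measure the spread between these samples.

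Intermediate filaments are rope-like polymers that carry mechanical load in the cytoplasm and line the inner nuclear membrane. In Sertoli cells vimentin filaments run from the nucleus to the cell surface, where they meet desmosome-like junctions with germ cells, and keratins 8 and 18, an obligate type II and type I pair, are known from fetal and immature Sertoli cells and fade as the cells mature. Lamins form the nuclear lamina. Somatic cells make lamins A and C from Lmna and B-type lamins from Lmnb1 and Lmnb2, while male germ cells are known for short lamins, lamin C2 from an internal start of Lmna and lamin B3 from an internal start of Lmnb2.

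Estimated counts summed to 17477268 to 17705347 in each day 7 library and to 15431912 to 16574144 in each adult one. The targeted gene Rnf20 had 16.64 and 16.01 FPKM (fragments scaled by transcript length and library size) in the day 7 controls and 10.25 and 12.58 in the day 7 knockout, with a log2 fold change of −0.49 (SE 0.12, adjusted p = 0.222 by the quasi-likelihood test of edgeR). In adult testis Rnf20 ranged from 3.32 to 4.89 FPKM in WT and from 5.76 to 9.85 in the samples labelled conditional knockout, so these whole-gene, whole-testis values did not check the adult labels. Sertoli cell markers were present at day 7, with 17 genes summing to 2639 and 2861 FPKM in WT samples and to 1850 and 2150 in the knockout. Clu and Ctsl held much of these sums, at 655 and 882 FPKM in the first knockout sample. Cldn11 was at 228.89 and 213.74 FPKM in the controls and 14.01 and 150.35 in the knockout. Sox9 was at 41.84 and 39.43 against 10.19 and 25.66. Of 16 tested list genes 10 lay below the controls without overlap on TMM-scaled counts and 2 above (26.2% and 24.8% of all genes). Of the 16, 2 passed the filter only through the group where they are high. Tsx was under the filter in both groups and Rhox5 was between 0.22 and 0.64 FPKM. Markers of peritubular myoid cells, summed over 7 genes, went in sum from 2575 and 2721 FPKM to 4322 and 4567, and those of stromal fibroblasts went from 2165 and 2254 to 3372 and 3975. In adult testis the summed spermatid markers ranged from 124750 to 193629 FPKM in WT and from 3.71 to 97.6 in the samples labelled conditional knockout, and the first of the latter stood apart, with a summed Sertoli list of 3364 FPKM against 7669 and 8979 in the other two. Clu made most of these 3 Sertoli sums, at 1857, 4411 and 4953 FPKM. In bulk RNA, fewer cells of a type and less RNA per cell cannot be told apart.

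Vim was the highest of these genes in day 7 Sertoli cells and differed little between the groups. Vim (Entrez 22352, GRCm38.p6 chromosome 2, 13574311 to 13582826) was at 2240.79 and 2283.39 FPKM in the Rnf20 Flox/Flox samples and at 2150.38 and 2308.46 in the Amh-Rnf20-/- samples. The second knockout sample lay above both controls and the first below both. The log2 fold change of Vim was 0.02 (SE 0.08, adjusted p = 0.930, edgeR's quasi-likelihood test), and its sign turned with the scaling, as −0.02 on total counts.

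The keratins were at levels far below Vim and varied more within each genotype than between genotypes. Krt8, the type II keratin (Entrez 16691, chromosome 15, 101996711 to 102004342), was at 35.96 and 23.14 FPKM in the day 7 controls and at 29.91 and 13.05 in the knockout. Krt18, its type I partner (Entrez 16668, chromosome 15, 102028216 to 102032026), was at 61.08 and 45.72 against 46.21 and 31.70. For both, the first knockout sample fell between the controls and the second was the lowest of the 4 samples. Krt19, a small type I keratin of simple and ductal epithelia (Entrez 16669, chromosome 11, 100140810 to 100145926), was at 17.42 and 11.85 FPKM in the controls and at 17.32 and 11.47 in the knockout, nearly the same pair of values. Log2 fold changes were −0.42 for Krt8 (SE 0.46, adjusted p = 0.707), −0.41 for Krt18 (SE 0.25, adjusted p = 0.489) and −0.02 for Krt19 (SE 0.32, adjusted p = 0.985), by edgeR's quasi-likelihood test. A processed copy, Krt8-ps, lies on chromosome 7 (23357094 to 23358779), and how reads shared with it were divided is not given in the sources used here, so Krt8 is uncertain to that extent.

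Nes encodes a large filament protein of progenitor and newly forming cells that co-assembles with vimentin (Entrez 18008, chromosome 3, 87971093 to 87980451). It was at 47.73 and 45.25 FPKM in the day 7 controls and at 36.29 and 53.31 in the knockout, which spanned the controls on both sides. Its log2 fold change was −0.01 (SE 0.20, adjusted p = 0.979, edgeR's quasi-likelihood test).

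Among the lamins, Lmna was the one gene of the 8 whose day 7 groups did not overlap. Such separation was common, at 51% of all genes tested on TMM-scaled counts (24.8% with the knockout higher). Lmna (Entrez 16905, chromosome 3, 88481148 to 88509932) was at 199.18 and 208.74 FPKM in the Rnf20 Flox/Flox samples and at 250.64 and 232.97 in the Amh-Rnf20-/- samples. Both knockout samples were higher, yet the difference did not pass the test over all genes (log2 fold change 0.28, SE 0.08, unadjusted p = 0.0216, adjusted p = 0.254, edgeR's quasi-likelihood test). Lmnb1 (Entrez 16906, chromosome 18, 56707813 to 56753424) was at 67.00 and 68.52 FPKM in the controls and at 64.11 and 75.40 in the knockout (log2 fold change 0.08, SE 0.10, adjusted p = 0.750). Lmnb2 (Entrez 16907, chromosome 10, 80901363 to 80918245) was at 14.20 and 13.43 FPKM against 12.12 and 13.93 (log2 fold change −0.04, SE 0.11, adjusted p = 0.882). Both B-type lamin genes overlapped between the groups.

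At day 7, 0 of the 8 genes and 0% of the 12880 genes tested had an adjusted p-value under 0.05 (edgeR's quasi-likelihood test). DESeq2 called 0 of the 8 where it called 4.5% of all genes. At an unadjusted p-value under 0.05, Lmna was the single one of the 8, where 15.5% of all genes tested passed. Groups on TMM-scaled counts did not overlap for 51% of all genes, 24.8% with the knockout higher and 26.2% with it lower. The median log2 fold change of the 8 was −0.02, beside 0.00 for all genes. Which knockout sample was used mattered, since chi-square per degree of freedom was 36.2 for the knockout pair and 2.73 for the control pair. Without the first knockout sample 5 of the 8 and 20.8% of all genes passed edgeR's quasi-likelihood test, with log2 fold changes of −1.14 for Krt8 (adjusted p = 0.0195), −0.72 for Krt18 (adjusted p = 0.0231), 0.24 for Nes (adjusted p = 0.0178), 0.22 for Lmna (adjusted p = 0.0125) and 0.19 for Lmnb1 (adjusted p = 0.0264). Without the second, 2 of the 8 and 37.7% of all genes passed, with Nes at −0.32 (adjusted p = 0.00677) and Lmna at 0.34 (adjusted p = 0.00241). Each of those fits has a lone knockout sample assumed to vary like the controls. Lmna kept its sign in both, and Nes changed sign between them.

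**Figure D1:**
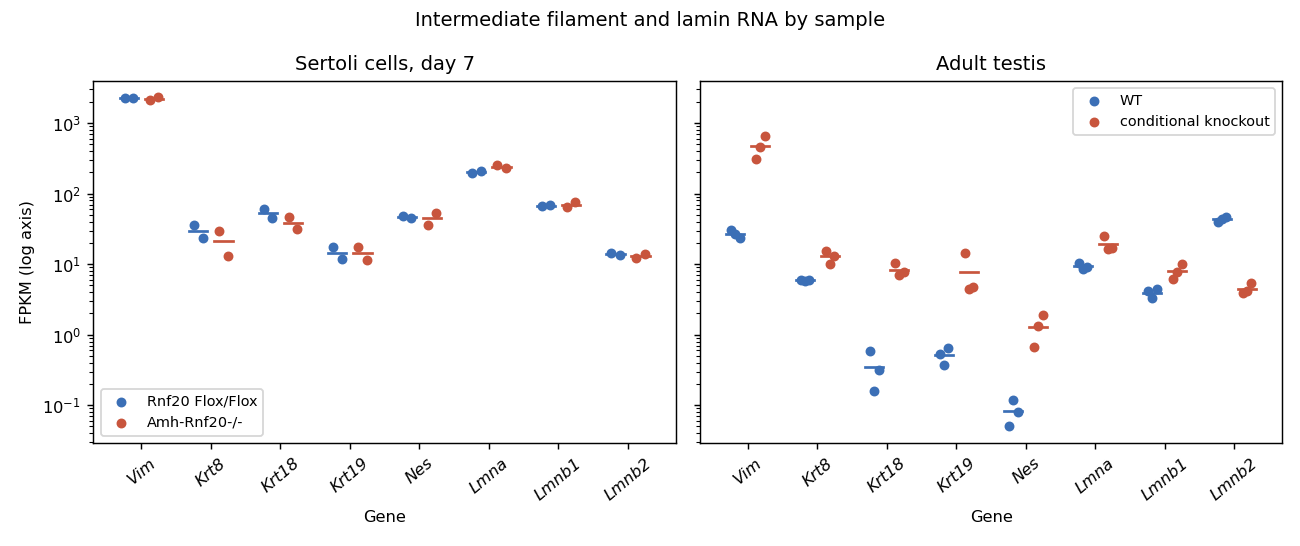
FPKM of each gene in every sample on a log axis, day 7 Sertoli cells on the left and adult testis on the right, with bars at group means. At day 7 the group means lie close on this axis for every gene, from Vim near the top to Lmnb2 at 12.12 to 14.20 FPKM. Single samples spread more for the keratins, as for Krt8 at 13.05 to 35.96 FPKM. In adult testis Lmnb2 is higher in WT, at 38.99 to 46.54 FPKM, than in the samples labelled conditional knockout, at 3.92 to 5.37. The other 7 genes are lower in WT by FPKM, though Lmnb1 turns with median-ratio scaling.

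The order of the levels per length was much the same in both day 7 genotypes. In the Rnf20 Flox/Flox samples Vim (mean 2262 FPKM) was followed by Lmna (204), Lmnb1 (67.8), Krt18 (53.4), Nes (46.5), Krt8 (29.6), Krt19 (14.6) and Lmnb2 (13.8). The ranges of Krt18 and Nes overlapped, as did those of Krt19 and Lmnb2, and all other neighbours were separate. In the Amh-Rnf20-/- samples Nes (44.8 FPKM) stood before Krt18 (39.0) with overlapping ranges, and Krt8, separate from Krt18, overlapped with Krt19 and Krt19 with Lmnb2.

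In adult testis Vim was higher in every sample labelled conditional knockout than in any WT sample. Its FPKM was 30.02, 26.41 and 23.30 in WT and 310.76, 458.13 and 656.70 in the samples labelled conditional knockout. Vim rose by 3.29 on the log2 scale (SE 0.30, adjusted p = 1.39e-04, edgeR's quasi-likelihood test with TMM scaling). The first of the 3, which had the lowest Vim, also had the lowest summed Sertoli list (3364 FPKM) and the highest summed stromal list (3445 FPKM against 1357 and 1337 in the other two). Stromal fibroblast, Leydig and macrophage lists, which hold other cells of the testis interstitium, each had 7 of 7 genes called higher, where 40.9% of all adult genes were, and of these the macrophage gene Cd163 passed the filter only through that group. Their summed FPKM went from between 42.4 and 56.4 to between 1337 and 3445 for the stromal list, from between 4044 and 5640 to between 65035 and 89587 for the Leydig list and from between 45.2 and 51.3 to between 869 and 1165 for the macrophage list. Insl3 made most of the Leydig sums, at 3700 to 5402 FPKM in WT and 54592 to 80266 in the others. The Sertoli list had 8 of 17 genes called higher and 2 lower, with a sum between 950 and 1246 FPKM in WT, and the myoid list 5 of 7 higher and 1 lower, with sums between 345 and 411 in WT and between 476 and 707 in the others. Most of the WT myoid sum was Actg2, the myoid gene called lower, at 255 to 335 FPKM in WT and 1.67 to 3.60 in the others. The part of any of these cells in the level of Vim was not tested.

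The type I keratins Krt18 and Krt19 were close to the detection limit in WT testis and higher in all samples labelled conditional knockout. Krt18 was at 0.58, 0.16 and 0.32 FPKM in WT, from 11, 3 and 6 counts, and at 10.30, 7.03 and 7.85 FPKM in the others, from 187, 130 and 139 counts. It rose by 3.71 on the log2 scale (SE 0.46, adjusted p = 4.76e-04, edgeR's quasi-likelihood test). Krt19 was at 0.54, 0.37 and 0.64 FPKM in WT and at 14.42, 4.40 and 4.67 in the others. The groups did not overlap for either keratin, and the first sample labelled conditional knockout held more Krt19 than the other two together. Krt19 rose by 3.12 (SE 0.69, adjusted p = 0.0059, edgeR's quasi-likelihood test), and by 2.35 (adjusted p = 3.96e-04) without that sample. Of 8 tested genes marking rete testis and mesothelium 7 were called higher (40.9% of all genes), though 6 of the 8 passed the filter only through the group where they are high. Their summed FPKM was between 18.9 and 21.3 in WT and 47.7, 76.4 and 127 in the samples labelled conditional knockout. Epcam set the order of these sums, at 16.78 to 18.75 FPKM in WT and 6.97, 54.53 and 105.48 in those 3 samples. Of the other tested genes, Upk3b, Krt7, Pax8, Msln and Upk1b were highest in the first of the 3, as Krt19 was. Cdh1 and Lrrn4 were not. The part of those cells in the keratin levels was not tested.

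Krt8 did not follow its partner. It was at 5.88, 5.84 and 5.94 FPKM in WT testis, an almost constant level, and at 15.36, 10.09 and 13.24 in the samples labelled conditional knockout. FPKM did not overlap, but counts scaled by TMM did, and the log2 fold change was 0.28 (SE 0.21, adjusted p = 0.249, edgeR's quasi-likelihood test). On total counts it was 1.13 (adjusted p = 0.00183), beside a shift of 0.87 in the median of all genes under that scaling.

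Nes was the lowest of the 8 in adult testis in either group. Its FPKM was 0.05, 0.12 and 0.08 in WT, from 5, 12 and 8 counts, and 0.66, 1.31 and 1.90 in the samples labelled conditional knockout, from 62, 125 and 172 counts. Nes rose 7.99-fold on TMM-scaled counts (SE 0.52 on the log2 scale, adjusted p = 0.00201, edgeR's quasi-likelihood test). Its order over those 3 samples was that of Vim, with the first sample lowest. Markers of endothelial cells, which are among the cells known to express nestin, were called higher for 5 of 7 genes (40.9% of all genes), with 4 of the 7 having passed the filter only through that group. Their summed FPKM was between 9.05 and 10.95 in WT and 92.9, 62.4 and 53.9 in the others, in the opposite order to Nes. The part of those cells in the level of Nes was not tested.

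The 3 lamin genes went apart in adult testis. Lmnb2 was at 38.99, 44.21 and 46.54 FPKM in WT and at 3.92, 4.22 and 5.37 in the samples labelled conditional knockout. It was the one gene of the 8 that fell, by 4.03 on the log2 scale (SE 0.16, adjusted p = 2.72e-05, edgeR's quasi-likelihood test), and the groups were far apart. All 10 spermatid markers also fell in these samples (40.6% of all genes did), 8 of them having passed the filter only through WT. Of 10 spermatocyte markers 6 were called lower, with 7 of the 10 having passed the filter only through WT. All 10 were below WT without overlap on TMM-scaled counts (43.1% of all genes). Spermatocyte sums were between 1477 and 1570 FPKM in WT and 3.12, 157 and 270 in the others. The part of either kind of germ cell in the level of Lmnb2 was not tested. Lmna was at 10.27, 8.65 and 9.15 FPKM in WT and at 24.87, 16.62 and 17.11 in the others, with no overlap. Lmna rose by 0.83 on the log2 scale (SE 0.24, adjusted p = 0.0189, edgeR's quasi-likelihood test), a call that was lost with median-ratio scaling (0.64, adjusted p = 0.0582), with DESeq2 (0.64, adjusted p = 0.0597) and without the second (0.81, adjusted p = 0.0635) or the third (0.77, adjusted p = 0.0696) WT sample. Lmnb1, the B-type lamin of most somatic cells, was at 4.13, 3.31 and 4.40 FPKM in WT and at 6.25, 7.66 and 9.98 in the others. Its TMM-scaled counts overlapped, and its log2 fold change of 0.15 (SE 0.19, adjusted p = 0.485, edgeR's quasi-likelihood test) became −0.05 with median-ratio scaling and 1.01 (adjusted p = 0.00609) on total counts. Without the first sample labelled conditional knockout it was 0.39 (adjusted p = 0.0499).

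Of the 8 genes, Vim, Krt18, Krt19, Nes and Lmna rose and Lmnb2 fell in adult testis at an adjusted p-value under 0.05 with edgeR's quasi-likelihood test, while Krt8 and Lmnb1 did not pass. These 6 of 8 stood beside 81.5% of the 15919 genes tested, of which 40.9% were called higher and 40.6% lower. With a log2 fold change beyond 1 in size as well as adjusted p below 0.001, Vim and Krt18 were higher and Lmnb2 was lower, where 23% and 23.7% of all genes were. This stricter call of Vim and Krt18 was lost without any one WT sample (adjusted p between 0.00144 and 0.00165 for Vim and between 0.00143 and 0.00475 for Krt18, edgeR's quasi-likelihood test), and without the second sample labelled conditional knockout (0.00101 and 0.00224), and that of Krt18 also without the third (0.00163). The 6 genes called also had an unadjusted p-value under 0.05 (82.6% of all genes) and no overlap on TMM-scaled counts (85.5%, of which 42.4% higher and 43.1% lower). Krt18, Krt19 and Nes passed the filter of 0.5 FPKM in 3 samples only through the group where they are high, so these counts are descriptions. Median log2 fold changes were 1.91 for the 8 and 0.01 for all genes. The scaling decides how many genes count as higher, since the TMM factors were between 0.710 and 0.761 in WT and between 1.27 and 1.42 in the samples labelled conditional knockout. With TMM 6503 genes were called higher and 6466 lower, on total counts 8615 and 4775, and with median-ratio scaling 5985 and 6928. On total counts 7 of the 8 genes were called higher and Lmnb2 lower, and with median-ratio scaling 4 were called higher and Lmnb2 lower.

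**Figure D2:**
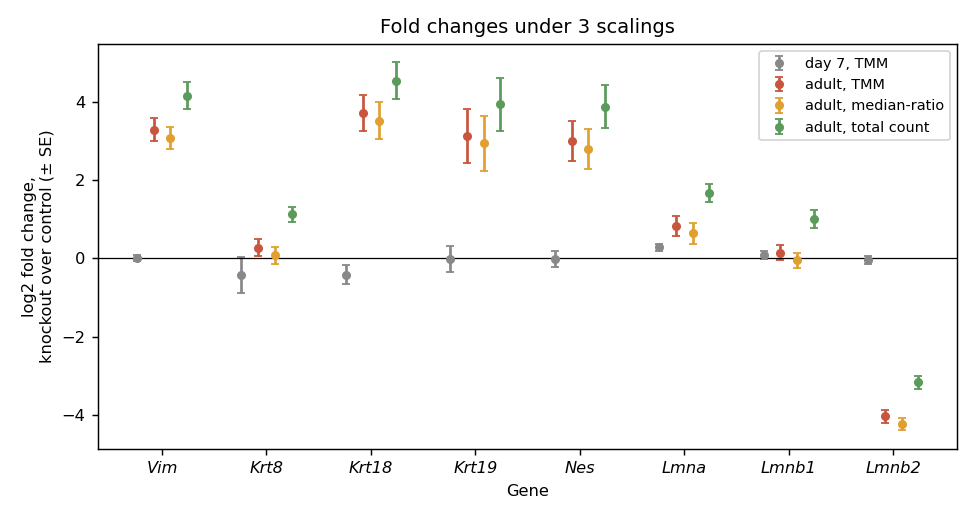
Log2 fold changes of knockout over control with standard errors, for day 7 under TMM scaling and for adult testis under TMM, median-ratio and total-count scaling. Vim, Krt18, Krt19 and Nes lie above 2 in adult testis under each scaling and Lmnb2 lies below −3, while Krt8 and Lmnb1 are near 0 except on total counts.

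Levels per length were ordered otherwise in adult testis than in day 7 Sertoli cells. In WT testis Lmnb2 (mean 43.2 FPKM) came first, before Vim (26.6), Lmna (9.36), Krt8 (5.89), Lmnb1 (3.95), Krt19 (0.517), Krt18 (0.353) and Nes (0.0833). The ranges of Krt19 and Krt18 overlapped and the other neighbours were separate. In the samples labelled conditional knockout Vim (475 FPKM) came first and Lmna (19.5) next. Krt8 (12.9), Krt18 (8.39), Lmnb1 (7.96), Krt19 (7.83) and Lmnb2 (4.50) formed a run in which neighbours overlapped, and Nes (1.29) came last and separate.

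Ratios between genes of the same sample do not depend on the scaling of the library. Keratins 8 and 18 assemble as pairs, and Krt18 exceeded Krt8 in all day 7 samples, with ratios of Krt8 to Krt18, as FPKM + 0.1 here and in the ratios that follow, of 0.589 and 0.507 in Rnf20 Flox/Flox and 0.648 and 0.414 in Amh-Rnf20-/- samples. The log2 ratio differed by −0.08 (exact two-sided permutation test, p = 1). In WT testis Krt8 exceeded Krt18, at ratios of 8.79, 22.8 and 14.4 (10.1, 36.5 and 18.6 with nothing added to the FPKM), and in the samples labelled conditional knockout the ratios were 1.49, 1.43 and 1.68. The 3 latter values lay within a narrow range below all WT values, and the log2 ratio differed by −3.22 (p = 0.1 by the exact two-sided permutation test, the lowest value open to 3 samples against 3), or by −1.80 with a pseudocount of 1 in place of 0.1.

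The ratio of Vim to the sum of Krt8 and Krt18, the cytoplasmic filament genes known from mature and immature Sertoli cells, overlapped at day 7, with values of 23.1 and 33.1 in Rnf20 Flox/Flox and 28.2 and 51.5 in Amh-Rnf20-/- samples. The log2 ratio differed by 0.46 (exact two-sided permutation test, p = 0.667), or by 0.90 without the first knockout sample and 0.03 without the second. In adult testis it was 4.59, 4.35 and 3.68 in WT and 12.1, 26.6 and 31.0 in the samples labelled conditional knockout, a log2 difference of 2.36 (exact two-sided permutation test, p = 0.1). All 3 of these samples lay above WT, the first of them lowest.

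The ratio of the A-type gene Lmna to the B-type genes Lmnb1 and Lmnb2 was 2.45 and 2.55 in the day 7 controls and 3.28 and 2.61 in the knockout, where both samples were higher. Its log2 difference was 0.23 (p = 0.333 by the exact two-sided permutation test, the lowest value open to 2 samples against 2), with 0.06 left without the first knockout sample and 0.40 without the second. In WT testis B-type lamin RNA exceeded Lmna, at ratios of 0.240, 0.184 and 0.181, and in the samples labelled conditional knockout Lmna exceeded the B-type genes, at 2.43, 1.40 and 1.11. The log2 ratio differed by 2.96 (exact two-sided permutation test, p = 0.1).

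**Figure D3:**
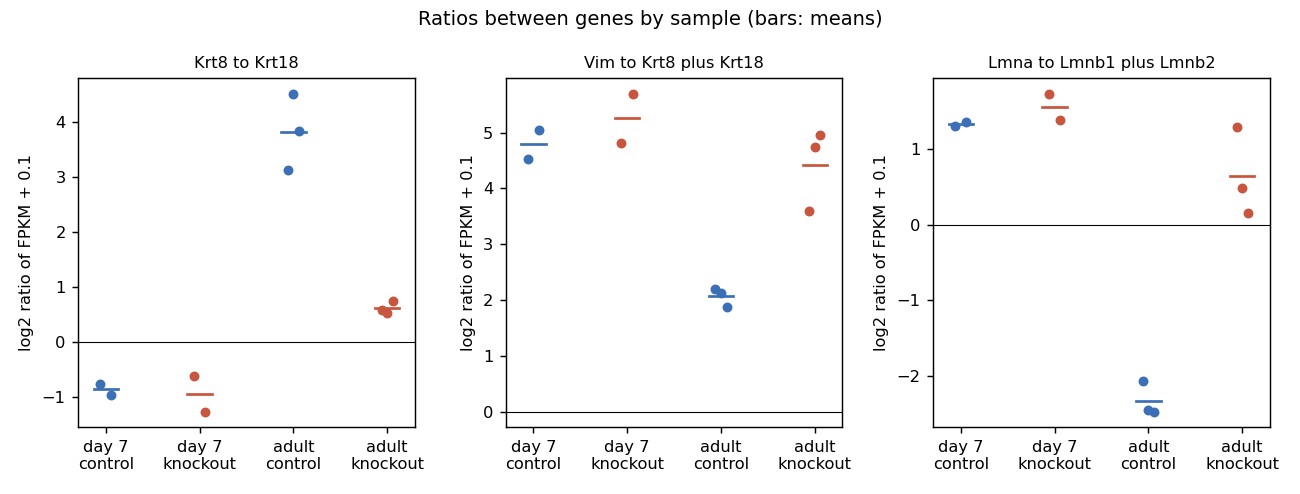
Log2 ratios of FPKM + 0.1 between genes in every sample, with bars at group means, for Krt8 to Krt18, Vim to Krt8 plus Krt18, and Lmna to Lmnb1 plus Lmnb2. The day 7 groups lie close together, while WT adult testis stands apart from the other 3 groups in all panels, with more Krt8 per Krt18, less Vim per keratin and less Lmna per B-type lamin.

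Because the deposited table gives both a count and an FPKM, the length by which the authors divided each gene can be read back as count over FPKM and library total. This implied length is an average over the transcripts that RSEM assigned, less a constant offset for fragment size, and it was computed after seeing the data. In GENCODE on GRCm38, Lmna has a long transcript of 3156 nt (chromosome 3, 88481148 to 88503335), a shorter one of 2021 nt from nearly the same start (88483205 to 88503307) and one of 1536 nt from an internal start (88483206 to 88493312). Lmnb2 has a long transcript of 3370 nt (chromosome 10, 80901364 to 80918245) and one of 1643 nt from an internal start (80902798 to 80906412). The transcripts of 3156 and 2021 nt differ at their other end, and a further short Lmna transcript starts upstream of both, at 88509956. The bases before the start of the long transcripts, called the upstream start here, and before the internal starts are printed to show how the 2 kinds of start differ in sequence.

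These promoter sequences are from RefSeq on GRCm38.p6, minus strand, 5′ to 3′ and free of annotated exons. Capitals mark a match to the GC box letters GGGCGG on either strand.
Lmna, upstream start, chr3:88503387-88503452: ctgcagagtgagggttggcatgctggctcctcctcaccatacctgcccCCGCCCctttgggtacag
Lmna, internal start, chr3:88493313-88493412: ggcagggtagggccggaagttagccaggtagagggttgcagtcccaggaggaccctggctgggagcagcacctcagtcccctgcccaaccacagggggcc
Lmnb2, upstream start, chr10:80918246-80918345: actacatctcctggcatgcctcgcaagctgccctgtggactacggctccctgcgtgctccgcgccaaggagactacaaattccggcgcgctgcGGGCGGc
Lmnb2, internal start, chr10:80906413-80906512: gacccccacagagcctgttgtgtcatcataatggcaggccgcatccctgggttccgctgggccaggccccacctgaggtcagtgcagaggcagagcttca

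Each upstream start had 1 GGGCGG match within 250 bases upstream, 52 bases before the RefSeq start of Lmna (88503352) and 7 before that of Lmnb2 (80918245), and the internal starts had none. The bases printed for Lmna stop 35 before its start to leave out annotated exon sequence. GGGCGG occurs in 32.7% of 32851 RefSeq promoter windows of 250 bases. Of the other motifs searched on both strands, TATAAA (12.4% of windows), CCAAT (33.8%) and TGACGT (6.47%), the single match was a CCAAT before the internal Lmna start, outside the bases printed. A match is a description of letters and not of a bound site.

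In day 7 Sertoli cells the implied length of Lmna was 2211 ± 30.3 nt in the controls and 2206 ± 15.3 nt in the knockout (SD, n = 2 each). The values expected of the transcripts of 3156 and 2021 nt, less the offset seen for Lmnb1, are 2880 and 1745 nt, and the samples lay between them. These expected values rest on GENCODE and can miss the authors' own gene models, since the Vim transcript of 2193 nt gives 1937 nt for adult testis, where the implied length was 1579 nt in WT. In WT testis it was 1362 ± 19.2 nt and in the samples labelled conditional knockout 2063 ± 75.8 nt (SD, n = 3 each). WT testis thus lay between the 1280 nt expected of the internally started transcript and the 1765 nt of that of 2021 nt, and the other samples lay above both. The implied length was 1.51-fold longer in the samples labelled conditional knockout, with every sample above WT (exact two-sided permutation test, p = 0.1), where 4.29% of 7584 genes were over 1.2-fold longer without overlap and 1.34% shorter. At day 7 both shares were 0.00982% of 10184 genes.

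For Lmnb2 the implied length was 2830 ± 3.43 nt in WT testis and 3029 ± 70.9 nt in the samples labelled conditional knockout (SD, n = 3 each), 1.07-fold longer and without overlap (exact two-sided permutation test, p = 0.1). Day 7 Sertoli cells gave 3087 ± 9.55 nt in the controls and 3091 ± 1.84 nt in the knockout, close to the 3094 nt expected of its long transcript. The 1387 nt expected in adult testis of the internally started one was far below all samples. Genes with a single RefSeq mRNA transcript had length ratios between 0.960 and 1.09 (5th to 95th percentile over 3730 genes), so the Lmnb2 ratio lay within that range and the Lmna ratio outside it. Vim stayed at 1579 ± 3.69 and 1577 ± 3.23 nt and Lmnb1 at 2586 ± 3.65 and 2587 ± 3.39 nt in WT and the other adult samples. The tables hold genes and not transcripts, so no share of a transcript can be given. The Lmna difference also depends on this length, with log2 fold changes of 1.03 from FPKM by limma and 1.67 from total counts. The medians of all genes were 0.81 and 0.87 in these 2 settings. By limma on FPKM, Krt8 (1.10) and Lmnb1 (0.98) differed by about as much as Lmna.

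**Figure D4:**
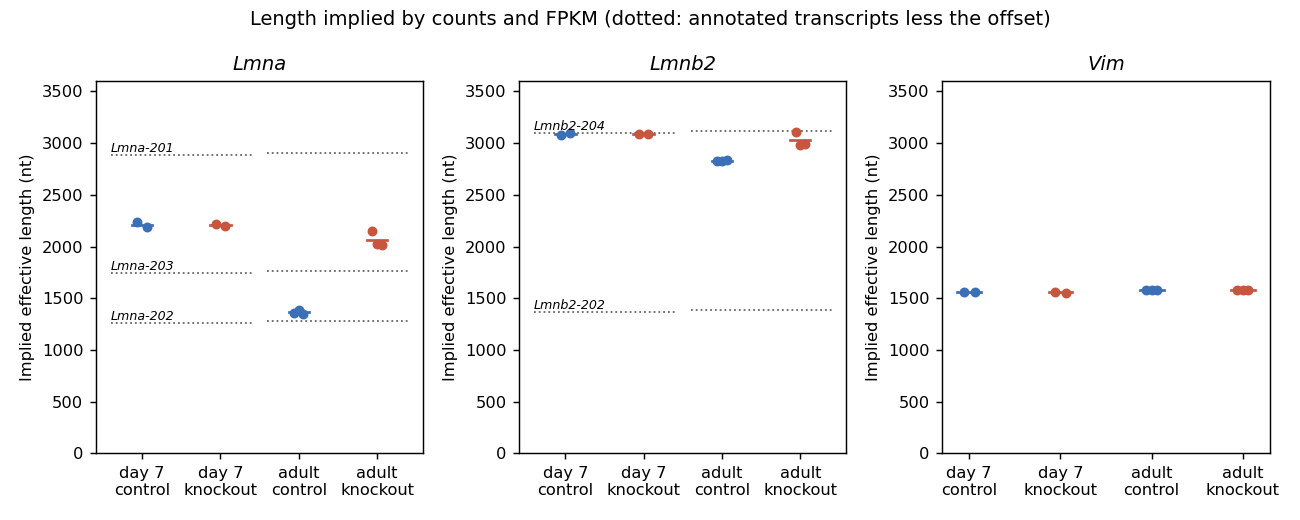
Implied effective length in nucleotides (nt) of Lmna, Lmnb2 and Vim in every sample, with bars at group means and dotted lines at the lengths expected of annotated Lmna and Lmnb2 transcripts less the offset. Lmna in WT testis lies at 1346 to 1384 nt, below all other groups, while Vim is level across all 4 groups.

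Relative to the mean log2 level of Sertoli cell markers, Vim, Nes and the 3 lamin genes were higher in both day 7 knockout samples than in both controls, by 0.61 for Vim, 0.55 for Nes, 0.88 for Lmna, 0.67 for Lmnb1 and 0.55 for Lmnb2 (log2, exact two-sided permutation test, p = 0.333 each). The Sertoli marker mean itself was 0.63 lower in the knockout, with control values of 5.14 and 4.99 against 4.004 and 4.85, and the first knockout sample made most of the difference. Of all genes tested 62% were higher without overlap on this scale and 2.51% lower (64.6% in all), so 5 of 8 was near the background. The sizes turned on the knockout sample used, as without the first they were 0.24 for Vim, 0.41 for Nes, 0.40 for Lmna, 0.36 for Lmnb1 and 0.22 for Lmnb2, and without the second 0.99, 0.70, 1.36, 0.98 and 0.87. Without the second knockout sample 8 of the 8 and 98.2% of all genes were without overlap. Krt8 (0.09) and Krt18 (0.17) overlapped on this scale, as did Krt19 (0.61). A Sertoli list without Amh, Cldn11, Dmrt1 and Sox9 gave smaller differences, of 0.37 for Vim, 0.32 for Nes, 0.64 for Lmna, 0.43 for Lmnb1 and 0.31 for Lmnb2.

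In adult testis the Sertoli marker mean was 1.62 higher in the samples labelled conditional knockout, and relative to it Vim was higher by 2.47, Krt18 by 2.69, Krt19 by 1.86 and Nes by 1.21, and Lmnb2 was lower by 4.87 (log2, exact two-sided permutation test, p = 0.1 each). Of all genes tested 60% did not overlap on this scale, 20.2% higher and 39.8% lower. Krt8 (−0.53), Lmna (−0.59) and Lmnb1 (−0.65) overlapped. For these 3 the first sample labelled conditional knockout lay above WT and the other two below it, and without that sample all 8 genes and 86.2% of all genes tested were without overlap, with Krt18 at 1.85, Krt19 at 0.62 and Lmnb2 at −5.47. The marker mean was 3.67, 3.29 and 3.39 in WT and 3.69, 5.55 and 5.98 in the others, so the first sample stood close to WT. With a pseudocount of 1 in place of 0.1, Krt18 was at 1.27, Krt19 at 0.84 with overlapping groups and Nes at −0.48 with its sign turned, and 3 of the 8 and 56.1% of all genes were without overlap.

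**Figure D5:**
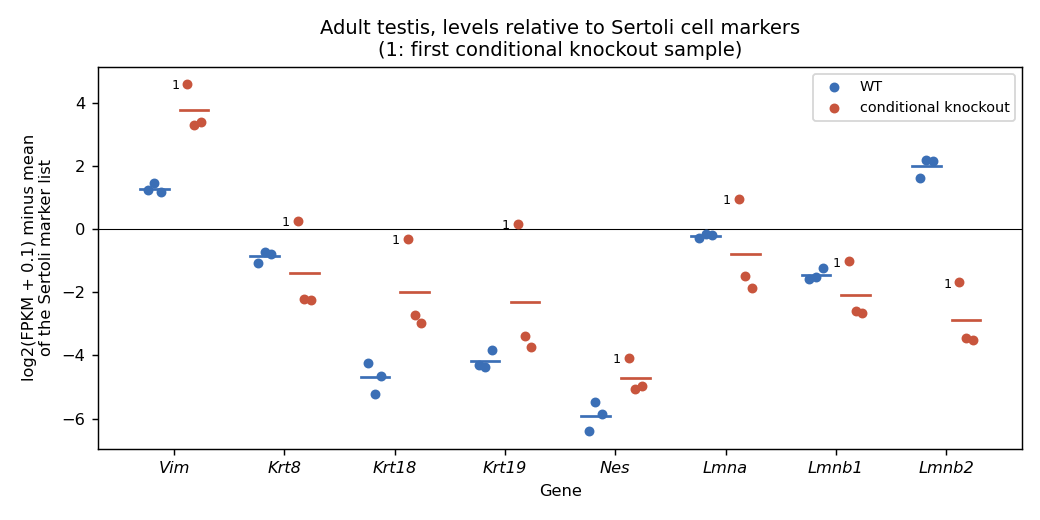
Log2(FPKM + 0.1) of each gene minus the mean of 17 Sertoli marker genes in adult testis, one point per sample with bars at group means. The first sample labelled conditional knockout, marked 1, is the highest of its group for every gene, and Lmnb2 is the gene for which WT lies above all others.

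Other genes of the same system were counted from lists of further intermediate filament genes, of filament linkers and of lamina partners. At day 7 none of 14 tested intermediate filament genes passed edgeR's quasi-likelihood test, with 5 at an unadjusted p-value under 0.05 (15.5% of all genes), and 3 of the 14, Prph and Krt17 among them, passed the filter only through the group where they are high. The largest differences were for Prph, a neuronal filament gene, with 4 and 3 counts in the controls and 120 and 40 in the knockout, for Des, the muscle filament desmin, at 11.24 and 8.61 against 60.94 and 20.88 FPKM, and for Krt17, at −2.03 on the log2 scale (adjusted p = 0.307). The first knockout sample was the highest for Prph and Des. The knockout was also above the controls for all 7 myoid markers, with 0 called by edgeR's quasi-likelihood test, where 24.8% of all genes were higher without overlap. In adult testis 4 of 14 were called higher and 5 lower by edgeR's quasi-likelihood test, no larger shares than the 40.9% and 40.6% of all genes. Of the 14, 9 passed the filter only through the group where they are high, Des, Lmntd1 and Krt6a among them, so the counts are a description. Des was among the former, rising by 3.86 (adjusted p = 9.46e-04). Lmntd1 and Lmntd2, which carry a lamin tail domain, fell, with log2 fold changes of −6.96 and −6.38 (adjusted p = 3.22e-05 and 1.22e-04). Krt6a fell from 30, 24 and 21 counts in WT to 0 counts in all 3 samples labelled conditional knockout.

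Filament linkers tie filaments to desmosomes and to other cytoskeletal fibres. At day 7, 0 of 10 tested were called by edgeR's quasi-likelihood test, with 4 at an unadjusted p-value under 0.05 (15.5% of all genes). Ppl, which encodes the desmosomal linker periplakin, was at 3.77 and 4.01 FPKM in the controls and 15.78 and 5.51 in the knockout. The junction genes Jup (plakoglobin) and Pkp2 (plakophilin 2) were at log2 fold changes of −0.48 (adjusted p = 0.245) and −0.33 (adjusted p = 0.286). In adult testis 5 of 9 were called higher and 3 lower by edgeR's quasi-likelihood test, beside 40.9% and 40.6% of all genes. Ppl rose from 3, 2 and 3 counts to 731, 305 and 393, the desmosomal cadherin gene Dsc2 from between 0.01 and 0.03 FPKM to between 0.64 and 1.80 (Ppl and Dsc2, like Dsp, passed the filter only through the group where they are high), and Pkp2 by 2.25 on the log2 scale (adjusted p = 8.13e-04, edgeR's quasi-likelihood test).

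Lamina partners include inner membrane proteins that bind lamins, bridges to the cytoskeleton and the enzymes that process prelamin A. At day 7, 0 of 23 were called by edgeR's quasi-likelihood test, with 4 at an unadjusted p-value under 0.05 (15.5% of all genes), and the largest log2 differences were the nesprin genes Syne3 (0.43) and Syne1 (0.42) and Sun2 (0.36). In adult testis 7 of 23 were called higher and 9 lower, no larger shares than the 40.9% and 40.6% of all genes. Nup153, a nuclear pore protein that binds lamins, fell by 3.03 (adjusted p = 4.62e-05). Tmem43, a lamin-binding membrane protein, rose by 2.46 (adjusted p = 8.88e-05), and Zmpste24, the protease that trims prelamin A, rose by 2.19 (adjusted p = 4.15e-05, edgeR's quasi-likelihood test). The balance in all 3 lists moved with the scaling, as on total counts 7 intermediate filament genes were higher and 3 lower, 6 linkers were higher and 0 lower, and 14 lamina partners were higher and 5 lower.

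The genes most like each of the 8 in pattern were sought over 12378 genes and all 10 samples, by the root mean square difference of log2 levels centred within each table. Nearest were Hpcal1 to Vim (0.12), Elmo3 to Krt8 (0.18), Pla2g4a to Krt18 (0.22), Fgfr4 to Krt19 (0.19), Hrct1 to Nes (0.17), Rhod to Lmna (0.06), Prpf31 to Lmnb1 (0.06) and Rcc1 to Lmnb2 (0.07). Next to Krt8 came Zbed6 (0.23) and Atp13a3 (0.23), and next to Krt18 came Aldh1a3 (0.23) and Cp (0.24). Partners did not stand near each other in this order, as Krt18 was 10448th in likeness to Krt8 and Krt8 was 6167th in likeness to Krt18. Among the lamins, Lmnb1 was 1763rd in likeness to Lmna (0.31) and Lmnb2 was 11712th (1.68).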

How the data were processed

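RNA of 4 day 7 Sertoli cell samples and 6 adult testis samples was enriched with oligo(dT) and sequenced. HISAT (GRCm38.p6) and Bowtie2 (reference genes) were the authors' mappers and RSEM gave the values; versions, read filters and strand are not given in the sources used here, and the methods describe the Sertoli cells only. The deposited estimated counts are not normalized, and between 10.7% and 13.2% of genes per sample were not whole, so they were rounded. The FPKM deposited by the authors are scaled by length and library size, and the deposited TPM have the same sum in every sample and served as an alternative for ratios.

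Genes with at least 0.5 FPKM in as many samples as the smaller group holds were tested with edgeR 4.0.16 (quasi-likelihood, TMM, Benjamini-Hochberg), which kept 12880 day 7 genes and 15919 adult genes, each table on its own. Ratios and levels relative to Sertoli markers used log2(FPKM + 0.1) and exact permutation tests. Alternatives were DESeq2 1.42.0, limma 3.58.1, other scalings, filters and pseudocounts, a replicate block, and each sample left out. Tests were tried on simulated data. Counting noise is largest for Krt18, Krt19 and Nes in WT testis, which have the fewest counts. The genes and lists were chosen with earlier results of these data known. Named are the 8 genes, Rnf20, the 3 largest differences of each list and table, and the nearest genes in pattern. Krt7, Upk3b, Epcam, Pax8, Msln, Upk1b, Cdh1, Lrrn4, Actg2, Tsx, Rhox5, Cd163 and Dsp were named after their values were seen. So were Clu, Ctsl, Cldn11, Sox9 and Insl3. R 4.3.3 and Python 3.11.15 were used. A further 20 columns of the adult table hold no values.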

Additional observations from a re-analysis of the deposited data

Results flagged for a closer look

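Lmnb2 relative to the Sertoli cell marker mean moved in opposite directions in the 2 tables. It was higher by 0.55 on the log2 scale in both day 7 Amh-Rnf20-/- samples than in both Rnf20 Flox/Flox samples, and differed by −4.87 in adult testis, where all 3 samples labelled conditional knockout lay below all 3 WT samples. The difference between the tables was not tested. At day 7 the Lmnb2 level itself overlapped between the groups while the marker mean was 0.63 lower in the knockout (4.004 and 4.85 against 5.14 and 4.99) and 62% of all genes were higher on this scale without overlap, and in adult testis the marker mean was 1.62 higher.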

How the results depend on the processing

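At an adjusted p-value under 0.05, all alternatives kept the direction and the call of Vim, Krt18, Krt19 and Lmnb2 in adult testis, and of Nes except that a mean of at least 1 FPKM left Nes untested. Since Krt18, Krt19 and Nes passed the main filter only through the group where they are high, their kept calls are a description and no added support. At day 7, DESeq2 called 579 genes at an adjusted p-value under 0.05 and 126 past the stricter thresholds, where edgeR called 0. With a sample left out, these counts were 0 to 5049 and 0 to 512, the 8 genes had 0 to 5 calls, and 5 to 8 of them were without overlap relative to Sertoli markers, the 8 without the second knockout sample, where 98.2% of all genes were. In adult testis 2605 to 10377 genes passed the stricter thresholds with a sample left out, where all samples gave 7432, and 5 to 8 of the 8 genes were without overlap relative to Sertoli markers; with a pseudocount of 1 there were 3 (56.1% of all genes). Control and knockout samples sharing a replicate number deviated together weakly (correlation across genes 0.029 at day 7, 0.017 to 0.030 in adult testis). The numbers were therefore not taken as pairs. A replicate block left 0 adult genes past the stricter thresholds (Vim, Krt18 and Lmnb2 no longer passed them), called the same 6 of the 8 genes at an adjusted p-value under 0.05, and gave 12209 against 12969 genes at that threshold.

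Signs turned at day 7 for Vim with limma on log2(FPKM + 0.1) and on log2(FPKM + 1) (−0.022 each) and on total counts (−0.021), and in adult testis with DESeq2 and median-ratio scaling for Lmnb1 (−0.052 each) and Rnf20 (−0.075 each). Relative to Sertoli markers without Amh, Cldn11, Dmrt1 and Sox9, Krt8 was at −0.15 and Krt18 at −0.069 at day 7, and Nes with a pseudocount of 1 was at −0.48 in adult testis. With a day 7 sample left out, log2 fold changes ran from −0.032 to 0.066 for Vim, −1.14 to 0.058 for Krt8, −0.45 to 0.31 for Krt19, −0.32 to 0.24 for Nes, −0.041 to 0.19 for Lmnb1 and −0.15 to 0.055 for Lmnb2. The Krt8 to Krt18 log2 ratio ran from −0.40 to 0.25, and levels relative to Sertoli markers from −0.93 to 1.11 for Krt8, −0.53 to 0.87 for Krt18 and −0.11 to 1.33 for Krt19. The cause of these shifts was not tested. The Lmna implied length ratio stayed at 0.57 to 0.61 on the log2 scale and that of Lmnb2 at 0.08 to 0.11.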

Other observations

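Of 8 tested rete testis and mesothelium genes 5 were higher and 3 lower in the day 7 knockout, with 0 called by edgeR's quasi-likelihood test, 3 with a p-value under 0.05 before adjustment (15.5% of all genes) and overlapping sums (35.7 and 49.99 FPKM against 58.2 and 28.2). Among the 8, 2 passed the filter only through the group where they are high, so these counts are descriptions. Upk3b, a uroplakin gene of mesothelium named after its values were seen, was at 0.58 and 0.65 FPKM in the Rnf20 Flox/Flox samples and at 8.04 and 2.06 in the Amh-Rnf20-/- samples. Krt7 went the other way, at 27.12 and 12.81 FPKM in the controls and at 11.75 and 7.10 in the knockout (log2 fold change −1.04, adjusted p = 0.368, edgeR's quasi-likelihood test). Krt19, which overlapped between the groups, was higher in the first sample of each genotype, as was Krt7.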
